A study of Mus musculus with 9 samples.

Results

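The cytosolic ribosomal protein genes encode the proteins that join with ribosomal RNA to form the small and the large subunit of the ribosome. They were followed here in N2A cells, a mouse neuroblastoma line, after depletion of EXOSC3 or DDX1. Members were taken by name, as every gene whose symbol begins with Rpl, Rps or Rplp and goes on with a number and at most a short suffix (a, x or l), together with Rpsa. The rule found 84 genes among the 24318 of the deposited tables. Of these, 77 are core ribosomal protein genes, 46 of the large and 31 of the small subunit, and 7 are paralogues with a core gene of the same number (Rpl3l, Rpl7l1, Rpl10l, Rpl22l1, Rpl39l, Rps4l and Rps27l). Ribosomal proteins with other names, such as Fau and Gnb2l1, are outside the rule and were read beside it.

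The groups were wild-type N2A cells given a scramble siRNA that targets no gene, an siRNA against EXOSC3 (siEXOSC3) or one against DDX1 (siDDX1), each with 3 libraries and otherwise unedited. EXOSC3 is a cap subunit of the RNA exosome, the main 3′ to 5′ ribonuclease that trims ribosomal RNA precursors, and DDX1 is an RNA helicase of the DEAD-box family. Each condition was grown as separately seeded plates of 1 established line, so p-values measure the spread between cultures of that line, and a transient knockdown leaves part of the target. Total RNA was freed of ribosomal RNA and sequenced without keeping the strand. Values are FPKM, the fragments of a transcript divided by its length and by the library's depth, in 1 table per knockdown that also holds the scramble libraries.

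The targeted genes followed their labels. Exosc3 had 45.8, 43.8 and 42.7 FPKM in scramble and 6.84, 7.68 and 6.01 in siEXOSC3 libraries, and Ddx1 had 129.6, 126 and 119 in scramble and 28.0, 28.7 and 34.8 in siDDX1 libraries. Of 11 neuronal and neuroblastoma markers, 7 (among them Tubb3, Chga, Chgb and Dbh) had a mean of at least 1 FPKM in each table, while Nefl and Nefm were near 0. The summed level of the 11 markers was 361 to 389 FPKM over the libraries of the siDDX1 table and 364 to 811 over those of the siEXOSC3 table, where 6 of the 7 tested rose. None of 12 markers of fibroblasts, blood, epithelium and astrocytes reached a mean of 1 FPKM over the libraries of a table, and their sum stayed between 0.830 and 2.16 FPKM in every library. In RNA from whole cultures, fewer cells of a kind and less RNA per cell cannot be told apart.

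As background, each ribosome carries a single copy of nearly every ribosomal protein, so their transcripts are made at high and matched levels. In mammals these transcripts begin with a C followed by an unbroken run of pyrimidines, the 5′ terminal oligopyrimidine tract, through which mTOR signalling and the binding protein LARP1 adjust their translation and stability. Many of the genes also carry small nucleolar RNAs in their introns, which guide the chemical modification of ribosomal RNA.

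The start of these transcripts could be read for 63 of the 84 genes, which have 75 entries in a RefSeq promoter table of 300 bases (250 before and 50 after the annotated start, build GRCm38.p6). Of the 67 entries of core genes, 20 (29.9%) have their first transcribed base inside an unbroken C/T run of at least 5 bases, compared with 10.1% of all 32851 promoters in the table. A C/T run of at least 8 bases lies within 50 bases of the start in 80.6% of core entries and in 35.7% of all promoters. The 8 core genes with the longest C/T run across the start, counted on both sides of it, are shown here. Each is given as 30 bases from 10 before the start onward, with the run in capitals. The runs of Rpl7a and Rpl34 begin before the first base shown.
Rpl7a: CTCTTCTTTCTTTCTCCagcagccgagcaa
Rpl27a: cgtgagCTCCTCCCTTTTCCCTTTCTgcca
Rpl34: CTTTTCCTCTTCCggggacggtgctcagag
Rpl35: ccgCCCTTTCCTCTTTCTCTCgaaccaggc
Rpl15: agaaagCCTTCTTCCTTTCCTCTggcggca
Rpl14: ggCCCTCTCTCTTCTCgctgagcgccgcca
Rpl35a: gcttgCCTTCCTCTTTCCgccatcttggcg
Rps10: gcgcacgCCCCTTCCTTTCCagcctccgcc

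These windows lie at chr2:26910797-26910826 (+) for Rpl7a, chr7:109519185-109519214 (+) for Rpl27a, chr3:130730318-130730347 (-) for Rpl34 and chr2:39005112-39005141 (-) for Rpl35. Those of the others are chr14:18270967-18270996 (-) for Rpl15, chr9:120571507-120571536 (+) for Rpl14, chr16:33056472-33056501 (+) for Rpl35a and chr17:27635225-27635254 (-) for Rps10, all on GRCm38.p6. Run length across the start falls from 21 bases in Rpl7a to 13 in Rpl35a and Rps10. In Rpl7a, Rpl27a and Rpl34 the annotated start base is T, and most of the run of Rpl34 lies before it. A run across the start is therefore not always a tract that begins there with C. None of the 6 paralogues with an entry (8 entries in all) has its start in such a run of at least 5 bases. Across the whole 300 bases, the letters CCGGAAG, the core of sites bound by ETS-family factors, occur on either strand in 37.3% of core entries and in 8.86% of all promoters. The letters AAGATGGC, a form of the YY1 site, occur in 10.4% of core entries and in 2.75% of all promoters, and the motifs can overlap in the letters AAG. In Rpl35a the reverse strand of AAGATGGC stands directly after the pyrimidine run shown above. These are matches of letters and say nothing of binding.

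Ribosomal protein transcripts made up a large part of the mRNA pool. In scramble cells the 77 core genes took 26.3, 27.0 and 24.7% of the FPKM of all protein-coding genes. Their scramble means had a median of 1474 FPKM, 55 of the 77 lay above 1000 FPKM, and 6 lay below 300. The small subunit genes had a median of 1494 FPKM and the large subunit genes one of 1364. Because 67 of the 76 neighbouring pairs in the order of levels had overlapping scramble libraries, most neighbours in it did not differ beyond their spread.

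**Figure D1:**
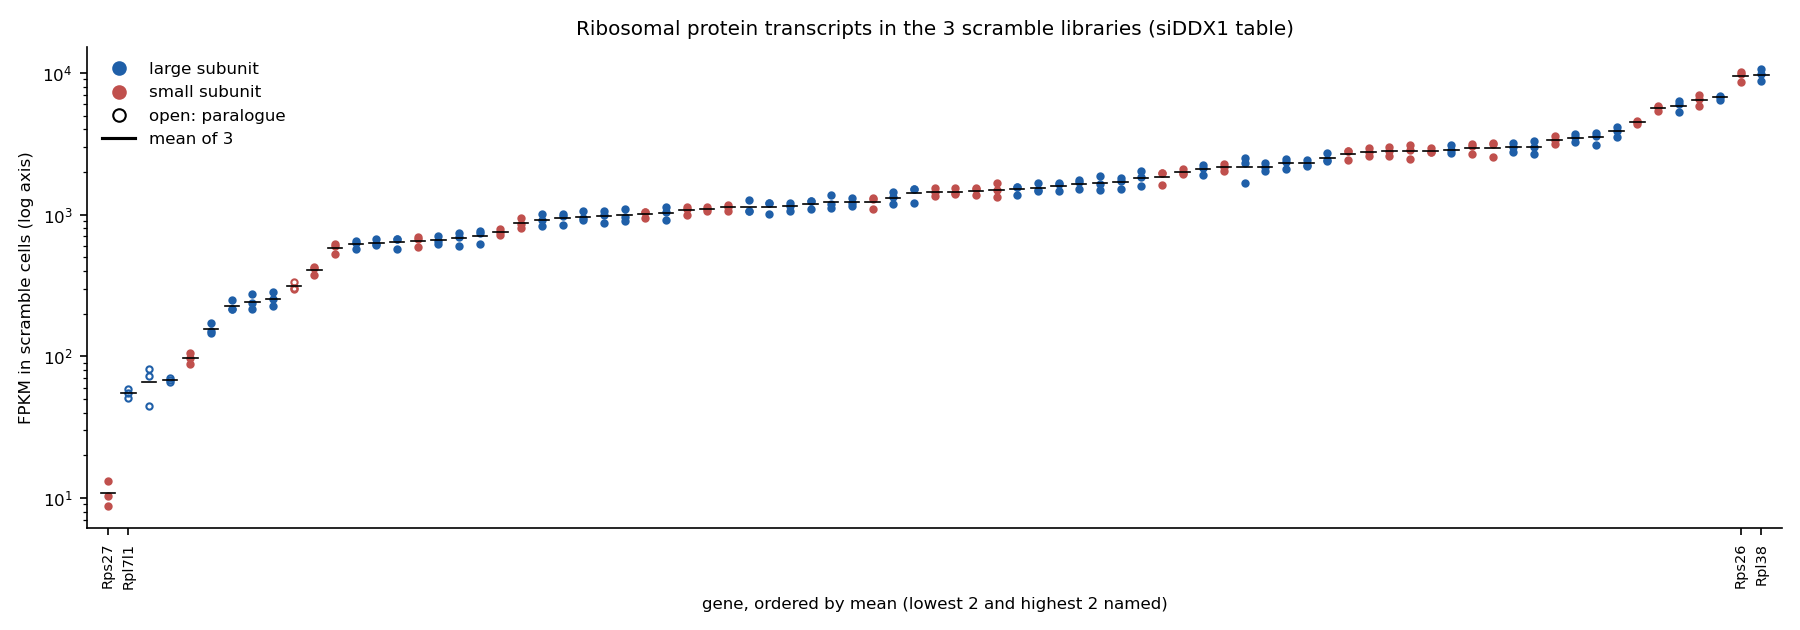
FPKM of the 81 tested ribosomal protein genes in the 3 scramble libraries of the siDDX1 table, on a log axis, ordered by their mean (bar), the 2 at either end named, with filled points for core genes and open points for paralogues. Most core genes sit around 1000 FPKM and above, from Rps27 at a mean of 10.7 to Rpl38 at 9714 FPKM.

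Rpl38, a small protein at the surface of the large subunit (chr11:114529838-114533645, + strand on mm9), was the highest core gene by its scramble mean. It had 10674, 9755 and 8713 FPKM in scramble, 15497, 13071 and 9888 in siDDX1 and 10535, 9305 and 10185 in siEXOSC3 cells. All 3 siEXOSC3 values lay within the scramble range, and siDDX1 replicate 3 did too. The lowest was Rps27, which encodes a zinc-binding protein of the small subunit (chr3:90016593-90017573, - strand), with 10.4, 13.1 and 8.74 FPKM with scramble siRNA, 11.0, 14.0 and 9.42 after DDX1 depletion and 11.4, 12.2 and 12.6 after EXOSC3 depletion. Its libraries overlapped in both comparisons. An intronless copy of it, Rps27rt, is listed as a gene of its own and had 6507, 5849 and 4759 FPKM in the same scramble libraries. Rpl34, at 249.8, 214 and 217 FPKM, stands beside Rpl34-ps1 at 2833, 2922 and 2516 FPKM. The reads of Rps27 and Rpl34 can therefore be split with near-identical copies, and their values are uncertain. RefSeq lists at least 1 pseudogene named after 64 of the 84 members, up to 23 for Rpl31 and for Rps12. Other low values, such as Rps15a (97.9, 105 and 88.3 FPKM) and Rpl30 (172, 146 and 149.7 FPKM), may therefore be uncertain too. The listed copies of Rps15a stood at only 2.27, 3.34 and 3.61 (Rps15a-ps4) and 1.58, 2.67 and 2.04 FPKM (Rps15a-ps6) in scramble. No copy of Rpl30 is listed. No core gene was listed at 0 or fell below the filter of a mean of 1 FPKM. Of the paralogues, Rpl10l was listed at 0 in all libraries and Rpl3l and Rps4l stayed below that filter, so 81 members were tested in each table.

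After DDX1 depletion, estimates for ribosomal protein transcripts were higher almost throughout, but few passed the test. Of the 81 tested genes, 80 had an estimate above 0, with a median log2 fold change of 0.34 (fold change on FPKM + 1), while the median over all 11104 tested genes was -0.00059. Only Rpl26 and Rpl34 passed an adjusted p of 0.05 (limma, Benjamini-Hochberg over all tested genes), which is 2 of 81 where 5.61% of all tested genes rose. None fell, where 5.03% of all genes did. At an unadjusted p below 0.05, 49 members were higher, compared with 15.1% of all genes, and 0 were lower, compared with 15.0%. In 38 members (46.9%) all 3 siDDX1 libraries lay above all 3 scramble libraries, compared with 17.0% of all genes, and in 0 did they lie below, compared with 17.8%. With quantile normalization, which forces the libraries to 1 distribution, the median over members was 0.053, with 58 estimates above 0 and 21 below.

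The 3 siDDX1 libraries did not move alike. Relative to the scramble mean of each gene, the median of the 81 genes was 0.49, 0.44 and 0.094 on the log2 scale in siDDX1 replicates 1, 2 and 3, and 0.029, 0.095 and -0.12 in the scramble replicates. Of the 81 genes, 79 lay above all scramble libraries in replicate 1, 79 in replicate 2 and 39 in replicate 3. Among the core genes, replicate 3 was the lowest siDDX1 library for 76 of 77, and scramble replicate 3 was the lowest scramble library for 72 of 77. The share of protein-coding FPKM taken by core genes shows the same order, with 31.4 and 30.6% in siDDX1 replicates 1 and 2 but 26.5% in replicate 3, inside the scramble range of 24.7 to 27.0%. When siDDX1 replicate 3 was left out, 71 members rose, where 16.4% of all genes did, and without either other siDDX1 library, or without scramble replicate 2 or 3, 0 were called. The number of members called depended on single libraries and also on settings of the fit.

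**Figure D2:**
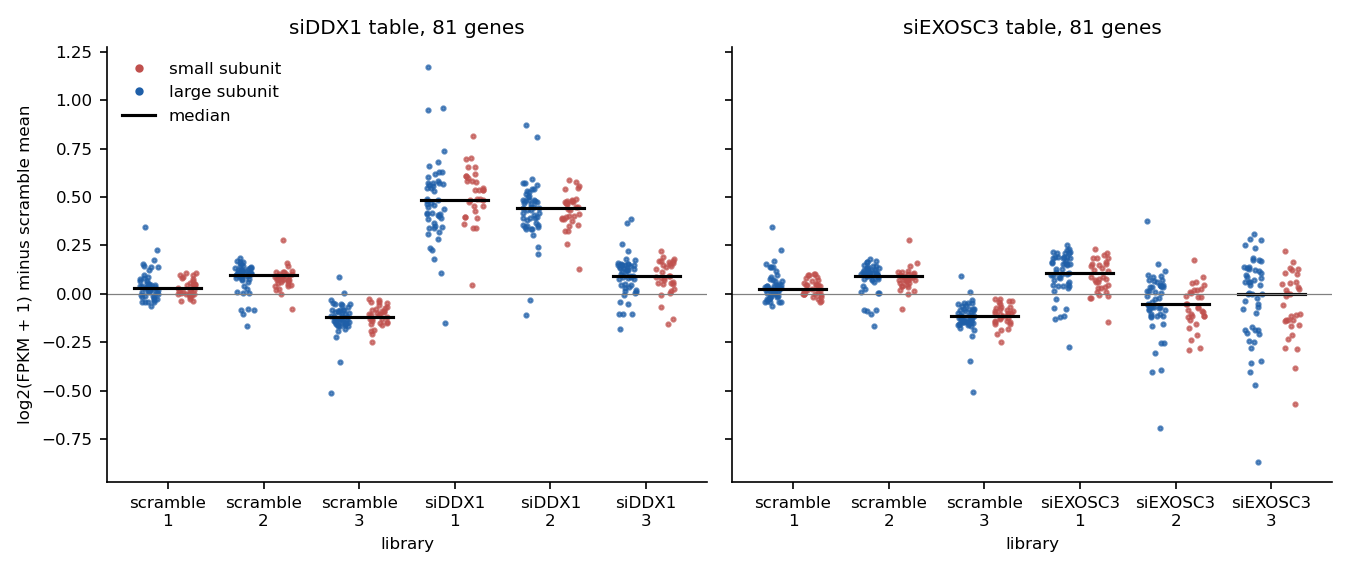
Log2(FPKM + 1) of each of the 81 tested genes in each library, minus the mean of the 3 scramble libraries, for the siDDX1 table (left) and the siEXOSC3 table (right), with the black bar at the median. In siDDX1 replicates 1 and 2 nearly all genes lie above 0 (medians 0.49 and 0.44), replicate 3 lies near the upper scramble library (0.094), and the siEXOSC3 libraries have medians of 0.11, -0.055 and 0.00076.

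Rpl26, a protein beside the exit tunnel that also binds p53 mRNA, had 282, 254 and 226 FPKM in scramble and 375, 465 and 331 in siDDX1 cells. All siDDX1 libraries exceeded all scramble libraries, and the log2 fold change was 0.61 (SE 0.131, adjusted p = 0.0264). The gene lies at chr11:68715085-68720491, + strand on mm9. Rpl34, a large subunit protein (chr3:130429749-130433316, - strand), rose from 249.8, 214 and 217 to 335, 303 and 292 FPKM, a log2 fold change of 0.45 (SE 0.0858, adjusted p = 0.0180). Its groups did not overlap either. Rpl34-ps1 had 3889, 3794 and 3032 FPKM in siDDX1 cells and a log2 fold change of 0.37 (adjusted p = 0.132), so the copy, listed at the higher level, had an estimate of similar size but did not pass. The call of Rpl26 was lost in 5 of the 6 fits that leave out a library and without the filter on low FPKM, and that of Rpl34 in 4 of the 6.

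Among members that did not pass, the largest estimates belonged to Rpl22l1 (0.71), Rpl36 (0.56), Rps20 (0.53) and Rpl28 (0.48). Rpl36, a large subunit protein, had 1709, 1747 and 1510.2 FPKM in scramble and 3213, 2460.4 and 1839 in siDDX1 cells (adjusted p = 0.0955). Rps20, a protein of the small subunit head, had 1094, 1135 and 994 and then 1888, 1611 and 1216 FPKM (adjusted p = 0.0679). In both genes every siDDX1 library lay above every scramble library, with replicate 3 the closest. Rpl28, a large subunit protein without a counterpart in budding yeast, had 2441, 2708 and 2399.8 and 3889, 3658 and 2998 FPKM (adjusted p = 0.0653), and its groups did not overlap either. The single estimate below 0 was that of Rpl30, which in its free form binds its own transcript in yeast, with 172, 146 and 149.7 FPKM in scramble and 139.8, 144 and 172 in siDDX1 cells (-0.041, SE 0.0962). For the 81 genes the 95% interval had a median half-width of 0.31 on the log2 scale.

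**Figure D3:**
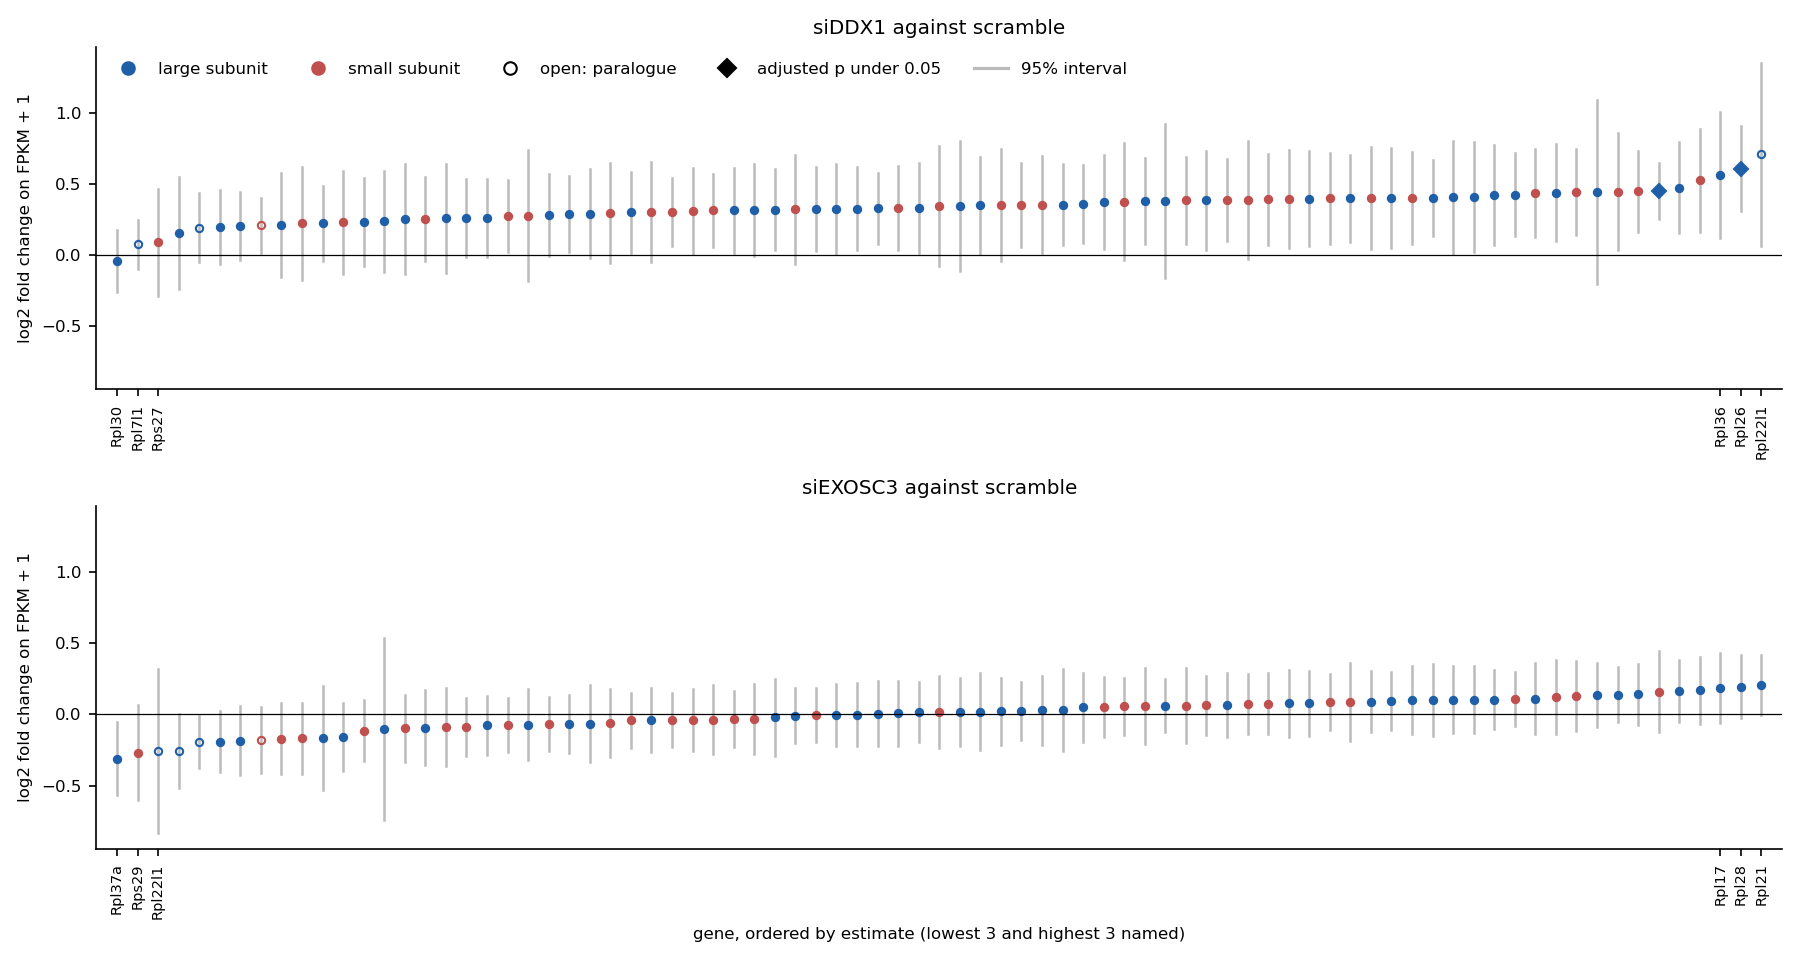
Log2 fold change on FPKM + 1 of each tested ribosomal protein gene against scramble with its 95% interval, ordered by estimate with the 3 at either end named, for siDDX1 (top) and siEXOSC3 (bottom), with diamonds for an adjusted p under 0.05 and open symbols for paralogues. After DDX1 depletion 80 of 81 estimates are above 0 and 2 pass, and after EXOSC3 depletion the estimates run from -0.31 to 0.21 and 0 pass.

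After EXOSC3 depletion, ribosomal protein transcripts had no common direction. Of the 81 tested genes, 44 had an estimate above 0 and 37 below, with a median log2 fold change of 0.016 compared with -0.014 over all 11242 tested genes. No member passed the limma test in either direction, where 16.7% of all genes rose and 15.7% fell. At an unadjusted p below 0.05, 0 members were higher and 2 were lower (Rpl37a and Rpl39l), where 22.0% of all genes were higher and 23.4% lower. The siEXOSC3 libraries lay all above the scramble libraries in 2 members and all below in 3, compared with 23.8 and 25.9% of all genes. For 78 of the 81 genes the 95% interval, unadjusted, lay within a 1.5-fold change in either direction, as for 8299 of all 11242 tested genes. In siDDX1 cells it did so for 21 of the 81, and for 9436 of all 11104 tested genes.

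The estimates ran from -0.31 for Rpl37a to 0.21 for Rpl21. Rpl37a, a zinc-binding protein of the large subunit (chr1:72757834-72760383, + strand on mm9), had 1278, 1073 and 1066 FPKM in the scramble libraries of the siEXOSC3 table and 1044, 857 and 858 in siEXOSC3 cells, every knockdown library below every scramble library (adjusted p = 0.0623). Over the main fit and its alternatives, 16 fits in all, its estimate ran from -0.40 to -0.22, and Rpl37a passed in 5. In siDDX1 cells it had 1873, 1493 and 1045 FPKM, with replicate 3 below all scramble libraries of the siDDX1 table (1268, 1065 and 1054). Rpl21, another large subunit protein, had 698, 750.5 and 612 and 777, 762 and 829.5 FPKM (adjusted p = 0.115), every siEXOSC3 library above every scramble library. Core genes took 27.2, 25.2 and 26.1% of protein-coding FPKM in the siEXOSC3 libraries. Replicate 1 was the highest siEXOSC3 library for 56 of the 77 core genes. The sign of the median depended on the setting. It was below 0 under 5 alternatives, those that equalized the distributions, the protein-coding totals or the length trend and those without scramble replicate 3 or siEXOSC3 replicate 1, where it reached -0.047 at the lowest.

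Both subunits had similar medians in each knockdown. In siDDX1 cells the median log2 fold change was 0.35 over the 31 small subunit genes and 0.33 over the 46 large subunit genes, a difference of 0.022. Small subunit genes exceeded all scramble libraries in all 3 siDDX1 libraries in 18 cases (58.1%) and large subunit genes in 19 (41.3%), compared with 17.0% of all tested genes, and the difference between the subunits was not tested. In siEXOSC3 cells the medians were -0.029 and 0.027, a difference of -0.056. Small subunit genes held between 43.1 and 44.7% of the summed core FPKM in every one of the 9 libraries, a ratio within each library that its scaling cannot alter. The scramble libraries held 44.3 to 44.7%, the siDDX1 libraries 44.5 to 44.6% and the siEXOSC3 libraries 44.3, 44.0 and 43.1%.

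The abundance of these genes was set beside their change, since all but a few stand at the top of the FPKM range. Among the 117 genes outside the group with a mean of at least 500 FPKM, the median log2 fold change in siDDX1 cells was 0.19, with 6 called higher and 0 lower, and their libraries had medians of 0.27, 0.17 and 0.069. It was 0.056 for 661 genes between 100 and 500 FPKM and -0.0088 for 9808 genes below 100. Short transcripts showed a smaller shift, with a median of 0.064 over 499 genes of up to 700 bases outside the group. Core members have a median transcript length of 726 bases and other tested genes one of 2321. The median over members, 0.34 in the main comparison, was 0.27 over the 80 members with a length once a trend on length was removed from each library. It was 0.053, with 58 estimates above 0, 21 below and 2 at 0, when the libraries were forced to 1 distribution by quantile normalization. With equal protein-coding totals it was 0.19 while the median of all genes moved to -0.14, so the distance between them changed little. The FPKM totals of siDDX1 replicates 1 and 2 (893687 and 848242) lay above those of the scramble libraries (692933 to 745839), and that of replicate 3 was 738926. Rmrp, the RNA of RNase MRP, alone took 17.3, 15.4 and 11.9% of these totals in siDDX1 replicates 1, 2 and 3 and 12.7 to 14.3% in scramble. In the siEXOSC3 libraries it took 15.5, 14.4 and 10.1%. The part that these properties have in the higher values was not tested.

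**Figure D4:**
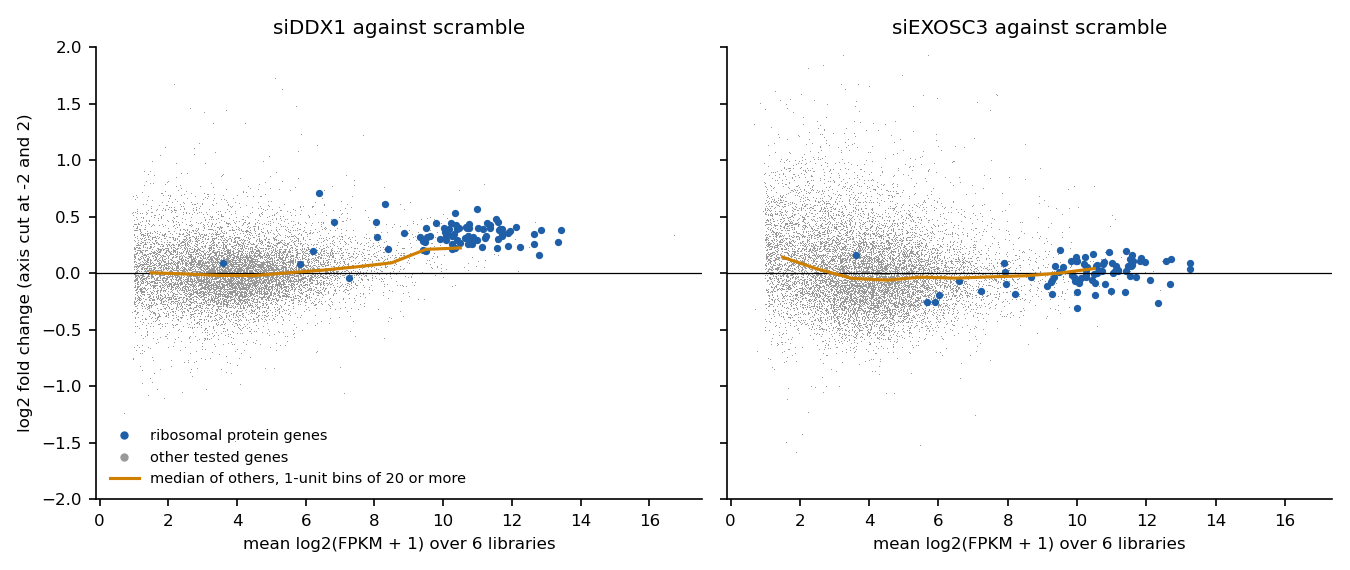
Log2 fold change against mean log2(FPKM + 1) over 6 libraries for every tested gene, with ribosomal protein genes in blue and the median of the other genes as a line. In siDDX1 cells the line climbs above 0 at high levels (a median of 0.19 at 500 FPKM and over) and the ribosomal protein genes lie mostly above it (0.34), whereas in siEXOSC3 cells both stay near 0 (0.020 and 0.016).

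The stalk proteins recruit translation factors to the large subunit. Rplp0, the stalk base, had 1145, 1216 and 1058 FPKM in scramble, 1694, 1638 and 1285 in siDDX1 and 1330.4, 1204 and 1262 in siEXOSC3 cells. Rplp1, an acidic stalk protein, had 2241, 2437 and 2213 FPKM with scramble siRNA, 3630.0, 3195 and 2521 after DDX1 depletion and 2722, 2339.7 and 2037 after EXOSC3 depletion. Rplp2, its partner, had 1499, 1678 and 1456 FPKM in scramble, 2251, 1941 and 1435 in siDDX1 and 1471, 1258 and 1367 in siEXOSC3 cells. Rplp0 and Rplp1 had all siDDX1 libraries above scramble, while replicate 3 of Rplp2 fell below them, and their log2 fold changes were 0.42, 0.42 and 0.26. In siEXOSC3 cells the estimates for Rplp0 and Rplp2 had opposite signs, 0.14 and -0.19. The siEXOSC3 libraries of Rplp2 all lay below the scramble libraries of their own table, whose lowest was 1473 FPKM against 1471 in siEXOSC3 replicate 1, a narrow gap. None passed in either knockdown.

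Rpl5 and Rpl11 enter the large subunit with 5S RNA and, when unassembled, bind the p53 regulator MDM2. Rpl5 stood at 739.5, 762 and 615 FPKM with scramble siRNA, 933, 976 and 747 after DDX1 depletion and 717, 660.3 and 765 after EXOSC3 depletion. Rpl11 stood at 2834, 3082 and 2709 FPKM in scramble, 3971, 3914 and 3346 in siDDX1 and 3447, 3141 and 3149 in siEXOSC3 cells. Rpl11 was above scramble in every library of both knockdowns, with log2 fold changes of 0.38 and 0.16 in siDDX1 and siEXOSC3 cells, and Rpl5 overlapped in both. Neither passed (adjusted p = 0.0993 and 0.217 for Rpl11).

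At the exit tunnel, through which the new protein leaves, Rpl4 lines the constriction and had 1326, 1432 and 1189 FPKM in scramble, 1669.9, 1677 and 1389.6 in siDDX1 and 1472, 1367 and 1641 in siEXOSC3 cells. Rpl17, near the tunnel end, had 1850.3, 2016 and 1599 FPKM with scramble siRNA, 2505, 2678 and 2026 after DDX1 depletion and 2128, 1946 and 2183 after EXOSC3 depletion. Rpl19, which also bridges the subunits, had 3598, 3782 and 3119 FPKM in scramble, 4422, 4471 and 3514 in siDDX1 and 3776, 3697 and 3867 in siEXOSC3 cells. These genes had siDDX1 replicates 1 and 2 above scramble, and replicate 3 was above it in Rpl17 alone of the 3. Rpl23a, a docking site for the signal recognition particle, had 3500.2, 3712 and 3249.9 FPKM with scramble siRNA, 4782, 4862 and 3949 after DDX1 depletion and 3995, 3626 and 3967 after EXOSC3 depletion. Rpl31, at the tunnel rim, had 1215, 1318 and 1149 FPKM in scramble, 1606, 1613 and 1299 in siDDX1 and 1289, 1165 and 1236 in siEXOSC3 cells. Rpl35, also at the rim, had 6019, 6312 and 5275 FPKM with scramble siRNA, 7395, 7373 and 6246 after DDX1 depletion and 6460.4, 6059 and 6512 after EXOSC3 depletion. The siDDX1 estimates of these 6 genes ranged from 0.24 (Rpl19) to 0.40 (Rpl17), and in siEXOSC3 cells from -0.0088 (Rpl31) to 0.19 (Rpl17). Rpl26 in siEXOSC3 cells had 292, 332 and 139 FPKM, the widest spread of any member (SE 0.280). Of the 9 tunnel genes, Rpl22 and Rpl39 included, 1 (Rpl26) passed in siDDX1 cells, where 5.61% of all genes rose, and 0 in siEXOSC3 cells, where 16.7% rose and 15.7% fell. All siDDX1 libraries lay above all scramble libraries in 3 of the 9 (Rpl17, Rpl23a and Rpl26), compared with 17.0% of all tested genes.

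The small subunit proteins at the mRNA channel follow. Rps2, at its entry, had 2166, 2263 and 2032 FPKM in scramble, 2948, 2810.4 and 2291 in siDDX1 and 2368, 2157 and 2265 in siEXOSC3 cells. Rps3, also at the entry and a DNA repair factor, had 421, 428 and 375 FPKM with scramble siRNA, 596, 557 and 423 after DDX1 depletion and 409, 369 and 426 after EXOSC3 depletion. Rps26, at the exit, had 10081, 9855 and 8686 FPKM in scramble, 12551, 12145 and 10068 in siDDX1 and 10544, 9651 and 10459 in siEXOSC3 cells. Rps28, beside it, had 2988, 2792 and 2601 FPKM with scramble siRNA, 3868, 3498 and 2548 after DDX1 depletion and 2836, 2301 and 2398 after EXOSC3 depletion. Rps2 alone of the 4 had all siDDX1 libraries above scramble, compared with 17.0% of all tested genes. In Rps28 siDDX1 replicate 3 fell below all scramble libraries. The siDDX1 estimates lay between 0.22 and 0.35 and the siEXOSC3 estimates between -0.17 and 0.088.

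Among members with roles in signalling or outside translation, Rps6, the substrate of S6 kinase, had 673, 689 and 587 FPKM with scramble siRNA, 852, 829 and 682 after DDX1 depletion and 644, 605 and 670.3 after EXOSC3 depletion. Rps27a, made as a fusion with ubiquitin, had 3159.7, 3186 and 2551 FPKM in scramble, 4272, 4071 and 3065 in siDDX1 and 3342, 3019.7 and 2981 in siEXOSC3 cells. Rpsa, also known as a laminin receptor, had 858, 940.4 and 803 FPKM with scramble siRNA, 1112, 1145 and 956 after DDX1 depletion and 964, 902 and 955 after EXOSC3 depletion. All siDDX1 libraries of Rpsa were above scramble, whereas replicate 3 of Rps6 and Rps27a lay within the scramble range. Rpl10, among the last proteins to join the large subunit, had 2346, 2449 and 2083 FPKM in scramble, 3429, 3252 and 2470.1 in siDDX1 and 2576, 2131 and 2382 in siEXOSC3 cells. Rpl13a, released in interferon responses, had 994, 1064 and 866 FPKM with scramble siRNA, 1293, 1321 and 984 after DDX1 depletion and 1009.9, 874 and 984 after EXOSC3 depletion. Rps25, used by viral internal entry sites, had 1949.6, 1968 and 1607 FPKM in scramble, 2571, 2397 and 1852 in siDDX1 and 1835, 1709.8 and 1651 in siEXOSC3 cells. Rpl10 was above scramble in all siDDX1 libraries and Rpl13a and Rps25 were not, and the 6 estimates lay between 0.27 and 0.40. In siEXOSC3 cells the same 6 ran from -0.097 to 0.11.

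Loss of 1 copy of certain ribosomal protein genes causes Diamond-Blackfan anaemia, a failure of red cell production. Of 18 genes in this list, 1 (Rpl26) passed in siDDX1 cells, close to the 5.61% of all genes that rose, and 0 in siEXOSC3 cells, where 16.7% rose and 15.7% fell, with median log2 fold changes of 0.32 and 0.061. Rps19, the gene most often affected, had 623, 596 and 522 FPKM in scramble, 889.5, 770.4 and 552 in siDDX1 and 588, 496 and 541 in siEXOSC3 cells. Rps7 had 1523, 1531 and 1369 FPKM with scramble siRNA, 2226, 2149 and 1656 after DDX1 depletion and 1719, 1511 and 1475 after EXOSC3 depletion. Rps10 had 1414, 1537 and 1404 FPKM in scramble, 2216, 2023 and 1571 in siDDX1 and 1666, 1412 and 1522 in siEXOSC3 cells. The small subunit genes Rps7 and Rps10 had all siDDX1 libraries above scramble, and Rps19 did not. Rps24 had 2876, 3082 and 2452 FPKM in scramble, 3535, 3878 and 2977 in siDDX1 and 3132, 2938 and 3160.3 in siEXOSC3 cells. Rps29, a zinc-binding protein of the small subunit head, had 5816, 5719 and 5361 FPKM with scramble siRNA, 8439, 7416 and 5837 after DDX1 depletion and 5594, 4902 and 3834 after EXOSC3 depletion. Rps29 had all siDDX1 libraries above scramble and Rps24 did not. Rps29 had its lowest values in siEXOSC3 cells, -0.27 (adjusted p = 0.186). Of the large subunit genes, Rpl15 had 667, 672 and 575 FPKM in scramble, 774, 786 and 653 in siDDX1 and 681, 660.4 and 670.5 in siEXOSC3 cells. Rpl18 had 1576, 1573 and 1377 FPKM with scramble siRNA, 2179, 1960.3 and 1588 after DDX1 depletion and 1658, 1461 and 1438 after EXOSC3 depletion. Rpl27 had 1199, 1011 and 1206 FPKM in scramble, 1328, 1621 and 1056 in siDDX1 and 1327, 1194 and 1114 in siEXOSC3 cells. In Rpl27, siDDX1 replicate 2 was the highest library and replicate 3 lay within the scramble range. Rpl35a had 916, 1012 and 826 FPKM with scramble siRNA, 1349, 1293 and 1009 after DDX1 depletion and 1054, 897 and 801 after EXOSC3 depletion. The siDDX1 estimates of the 18 genes ran from 0.089 for Rps27 to 0.61 for Rpl26.

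Paralogues can replace or accompany their core protein, and since FPKM is per length the levels of a pair can be compared. Rpl22l1 takes the place of Rpl22, an RNA-binding protein that represses its paralogue's expression. Rpl22l1 (chr3:28704358-28706274, + strand on mm9) had 81.5, 71.9 and 44.6 FPKM in scramble, 146, 113 and 71.0 in siDDX1 and 72.8, 39.5 and 54.4 in siEXOSC3 cells. Rpl22 had 238, 273 and 214 FPKM with scramble siRNA, 321, 333 and 253 after DDX1 depletion and 249.7, 223 and 259.9 after EXOSC3 depletion. Rpl22l1 showed the largest estimate of any member in siDDX1 cells, 0.71 (SE 0.281, adjusted p = 0.134), but siDDX1 replicate 3 lay within its scramble range. Its share of the pair was 25.5, 20.8 and 17.3% in scramble, 31.2, 25.3 and 21.9% in siDDX1 and 22.6, 15.1 and 17.3% in siEXOSC3 libraries. The means were 21.2% ± 4.14, 26.1% ± 4.70 and 18.3% ± 3.86 (SD, n = 3), and the two-sided exact permutation test gave p = 0.3 for siDDX1 and p = 0.5 for siEXOSC3, where 3 libraries against 3 cannot go below 0.1. The ranges overlapped in both comparisons.

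Rpl39l, a testis-enriched form of the tunnel protein Rpl39 (chr16:10170319-10175004, + strand), had 69.9, 68.1 and 65.5 FPKM with scramble siRNA, 89.1, 80.4 and 65.4 after DDX1 depletion and 65.0, 61.4 and 53.5 after EXOSC3 depletion. Rpl39 had 2487, 2317 and 1666 FPKM in scramble, 4105, 3162 and 1871 in siDDX1 and 2214, 1799 and 1768 in siEXOSC3 cells. Rpl39 varied widely among the scramble libraries, with replicate 3 the lowest, and the paralogue share of 3.12% ± 0.575 in scramble compared with 2.66% ± 0.645 in siDDX1 and 3.03% ± 0.238 in siEXOSC3 cells (SD, n = 3, exact permutation p = 0.4 and 0.9). Rpl7l1, a relative of Rpl7 found in large subunit precursors (chr17:46910856-46919605, - strand), had 58.4, 50.6 and 54.7 FPKM with scramble siRNA, 58.8, 53.3 and 60.6 after DDX1 depletion and 45.3, 54.2 and 39.4 after EXOSC3 depletion. Rpl7 had 1644, 1681 and 1466 FPKM in scramble, 2123, 2095 and 1703 in siDDX1 and 1742, 1535 and 1609.8 in siEXOSC3 cells. The share of Rpl7l1 was 3.32% ± 0.352, 2.87% ± 0.500 and 2.78% ± 0.552 in the same order (SD, n = 3, exact permutation p = 0.3 and 0.2). The siDDX1 libraries of Rpl7l1 overlapped its scramble range (0.076, SE 0.0755). In siEXOSC3 cells Rpl7l1 had an estimate of -0.26 (SE 0.113, adjusted p = 0.113). Over the main fit and its alternatives, 16 fits in all, this estimate ran from -0.37 to -0.15. Rpl7l1 passed in 1 of them, without siEXOSC3 replicate 2, the library nearest to scramble (limma, adjusted p = 0.00955). Rpl39l had an estimate of -0.19 in siEXOSC3 cells (SE 0.0807, adjusted p = 0.0985), with all siEXOSC3 libraries below all scramble libraries, as in 25.9% of all tested genes.

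Rps27l, a p53 target and close relative of Rps27 (chr9:66793893-66797323, + strand), had 336, 296 and 305 FPKM in scramble, 395, 341 and 348 in siDDX1 and 284, 311 and 241 in siEXOSC3 cells. Every siDDX1 library was above scramble and the siEXOSC3 libraries were lower on average, with log2 fold changes of 0.21 and -0.18 (adjusted p = 0.138 and 0.197). Against Rps27 alone its share was 96.7% ± 0.782 in scramble, 96.9% ± 0.744 in siDDX1 and 95.8% ± 0.673 in siEXOSC3 cells (SD, n = 3, exact permutation p = 0.5 and 0.3). The share leaves out Rps27rt, which was listed apart. With Rps27rt counted as Rps27, a sum chosen after the values were seen, the share of Rps27l was 5.24% ± 0.675, 4.55% ± 1.02 and 5.14% ± 0.519 (SD, n = 3, exact permutation p = 0.4 and 0.9). In the remaining pairs nearly all FPKM came from the core gene. Rpl3, a protein at the catalytic centre, had 1037, 1122 and 916 FPKM with scramble siRNA, 1551, 1542 and 1111 after DDX1 depletion and 1013, 866 and 1074 after EXOSC3 depletion, and its muscle form Rpl3l reached at most 0.1001 FPKM in any library. Rpl10l was listed at 0 beside Rpl10, and Rps4l, which RefSeq classes as a transcribed pseudogene, reached at most 0.618 FPKM beside Rps4x at 1489, 1663 and 1330.1 FPKM in scramble cells. Rps4x itself, the X-linked small subunit gene, had 2217, 2166 and 1577 FPKM in siDDX1 and 1582, 1446 and 1235 in siEXOSC3 cells. The 4 tested paralogues had estimates above 0 in siDDX1 cells (median 0.20) and below 0 in siEXOSC3 cells (median -0.22). None passed, where 5.61% of all genes rose and 5.03% fell in siDDX1 cells and 16.7% rose and 15.7% fell in siEXOSC3 cells.

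**Figure D5:**
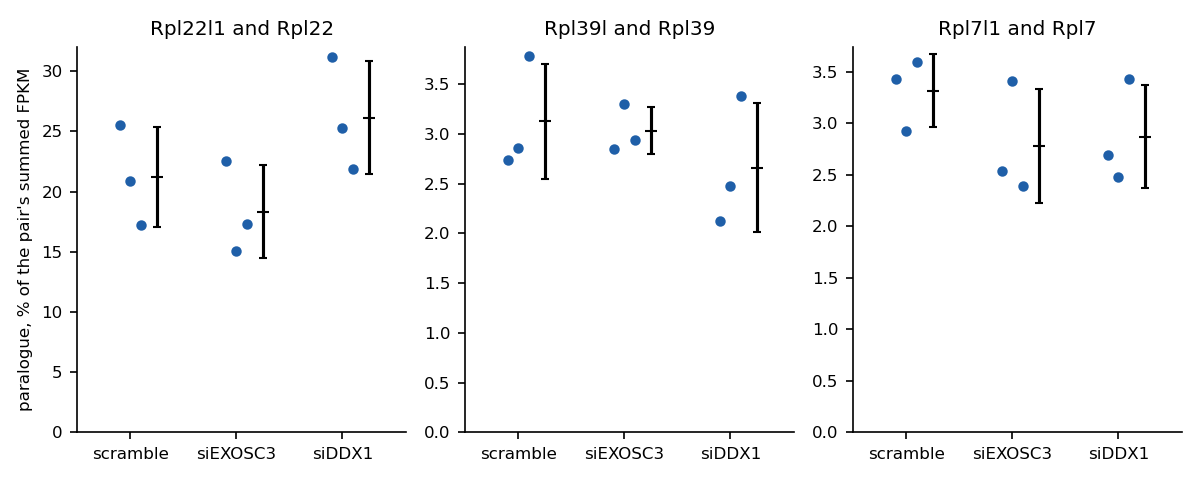
Share of the paralogue in the summed FPKM of each pair in every library (points) with the mean and SD, n = 3, for scramble, siEXOSC3 and siDDX1 cells, each axis starting at 0. Rpl22l1 makes up 17.3 to 31.2% of its pair in the scramble and siDDX1 libraries, Rpl39l and Rpl7l1 between 2.12 and 3.78%, and the groups overlap in each pair.

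Ribosomal protein genes that host small nucleolar RNAs were compared with those that do not. In GENCODE vM1 on mm9, 30 of the 77 core genes hold 1 or more of 58 annotated snoRNA genes on their own strand. In siDDX1 cells the median log2 fold change was 0.35 over the 30 hosts and 0.34 over the 47 others, and 18 hosts (60.0%) and 19 others (40.4%) had all siDDX1 libraries above all scramble libraries, compared with 17.0% of all tested genes. The difference between hosts and others was not tested. In siEXOSC3 cells the medians were 0.014 and 0.022. Levels of the snoRNAs themselves were not analysed here.

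The wider pathway was read by lists. Of 4 ribosomal proteins with other names, 0 passed in siDDX1 cells, where 5.61% of all genes rose and 5.03% fell, and 0 in siEXOSC3 cells, where 16.7% rose and 15.7% fell. Their siDDX1 estimates had a median of 0.30, and the highest was Gnb2l1, the scaffold RACK1, at 0.48 (adjusted p = 0.0762). Of 16 other transcripts known to begin with a pyrimidine tract, mostly elongation and initiation factors, 1 rose in siDDX1 cells, where 5.61% of all genes rose. It was Eef1d (0.28, adjusted p = 0.0344), and 15 of 16 estimates were above 0 (median 0.25). In siEXOSC3 cells 0 rose and 2 fell, Eef1d (-0.36, adjusted p = 0.00472) and Hnrnpa1 (-0.36, adjusted p = 0.0240), with a median of -0.039, where 15.7% of all genes fell. Eef1d, a subunit of the factor that reloads eEF1A, had 129, 125 and 122 FPKM in scramble, 160.4, 155 and 142 in siDDX1 and 99.4, 101 and 93.7 in siEXOSC3 cells, separated from scramble in both.

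Of 8 dedicated chaperones and loaders of ribosomal proteins, 0 passed in siDDX1 cells (median 0.048), where 5.61% of all genes rose and 5.03% fell. In siEXOSC3 cells 0 rose and 2 fell, where 15.7% of all genes fell. Of the 8 estimates 7 were below 0 (median -0.24), as were 5840 of 11242 over all genes. Grwd1, the chaperone of Rpl3, fell by 0.56 on the log2 scale (adjusted p = 0.0275), and Ltv1, an assembly factor that binds Rps3, fell by 0.40 (adjusted p = 0.0391). Rpl3 and Rps3 themselves had siEXOSC3 estimates of -0.072 and -0.038, neither past the test. Of 6 regulators of these transcripts, 1 rose in siDDX1 cells (5.61% of all genes did), and in siEXOSC3 cells 1 rose and 1 fell (16.7 and 15.7% of all genes did). Myc rose in siDDX1 cells, with 122, 119 and 127 FPKM in scramble and 168, 160.2 and 187 after depletion (0.48, adjusted p = 0.00899). Its highest siDDX1 library was replicate 3, the one in which ribosomal protein transcripts were lowest. In siEXOSC3 cells Mycn rose by 0.86 (adjusted p = 0.00299) and Rps6kb1, which encodes S6 kinase, fell by 0.41 (adjusted p = 0.0114), while Larp1, Mtor, Myc and Eif4ebp1 did not pass. For 79 of the 81 genes the estimate was larger in siDDX1 than in siEXOSC3 cells, but both comparisons use the same scramble libraries and the difference was not tested.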

How the data were processed

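RNA was sequenced from 9 samples of N2A cells, 3 each with scramble, EXOSC3 or DDX1 siRNA. The authors aligned reads to mm9 with TopHat2 version 2.1.0, sorted them with SAMtools and ran Cuffdiff version 2.2.1 on each knockdown against scramble. The deposited values are FPKM per gene and library, in 2 tables. Gene annotation and library normalization are not given in the sources used here. The same scramble library was 0.782 to 1.19% higher in the siEXOSC3 table, so tests stayed within a table, and scramble values printed beside both knockdowns are those of the siDDX1 table unless stated. Depth is unknown from FPKM, and no counting interval is given.

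Genes with a mean of at least 1 FPKM over the 6 libraries were tested as log2(FPKM + 1), a scale that understates changes of low genes, in limma (version 3.58.1, under R 4.3.3, with lmFit and eBayes, an intensity trend, no covariates, two-sided, Benjamini-Hochberg, threshold 0.05). The code of the fit was run on simulated data with changes put in, and the outcome is not given here. Shares were compared by a two-sided exact permutation test. Positions and snoRNA hosts came from GENCODE vM1 (NCBIM37, the sequence of mm9), in which 83 of 84 members matched, and promoters and pseudogene names from RefSeq. Motifs were searched on both strands. Protein sequences were not used here.

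Any member could be named. Values in every library were given for paralogue pairs, the largest called changes, the highest and lowest core gene and members with a listed role, and also for Rpl36, Rps20, Rpl28, Rpl30, Rpl37a and Rpl21, chosen after their values were seen. A few genes of these lists are not reported here. The members and lists were chosen with earlier results of these data known. Alternatives were a pseudocount of 0.1, no filter, a mean of at least 5 FPKM, quantile normalization, median centring, equal protein-coding totals, no intensity trend, a replicate block, an adjusted p below 0.01, leaving out each library, and, chosen after seeing the data, removal of a loess trend on transcript length (span 0.3) and the addition of Rps27rt to Rps27. Figures were drawn with matplotlib version 3.10.9.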

Additional observations from a re-analysis of the deposited data

Results flagged for a closer look

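Rps25, Rps27l and Rps29 were above scramble in every siDDX1 library and below it in every siEXOSC3 library, relative to the mean of the scramble libraries of the same table. The share of all tested genes that meet this rule was not counted, so the number of these genes is not read as a result about the members. The siDDX1 estimate exceeded the siEXOSC3 estimate by 0.39 on the log2 scale for Rps25, by 0.39 for Rps27l and by 0.61 for Rps29. Rps29 had 5816, 5719 and 5361 FPKM in scramble, 8439, 7416 and 5837 in siDDX1 and 5594, 4902 and 3834 in siEXOSC3 cells. For Rps25 siDDX1 replicate 3 stood at 101% of the scramble mean and siEXOSC3 replicate 1 at 98.8%. None of the 3 genes passed the limma test in either knockdown, the scramble libraries are common to both, and the difference itself was not tested.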

How the results depend on the processing

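The count of members that rose in siDDX1 cells (2) was 1 without the filter on low FPKM, 3 with equal protein-coding totals, 5 without the intensity trend, 0 at an adjusted p below 0.01 and 61 with the replicate block, and it ranged from 0 to 71 when each library was left out (71 without siDDX1 replicate 3, 0 without siDDX1 replicate 1 or 2 or scramble replicate 2 or 3, and 1 without scramble replicate 1). Libraries of the same number correlated in their deviations at -0.012, 0.38 and 0.37 in the siDDX1 table and at 0.035, -0.31 and -0.13 in the siEXOSC3 table, so the numbers were not taken as pairs. The count of members that fell in siEXOSC3 cells (0) was 3 with quantile normalization, 3 with the length trend removed, 1 with equal protein-coding totals, 1 with the replicate block and 0 to 2 when each library was left out (1 without siEXOSC3 replicate 1, 2 without replicate 2). Over all tested genes 5.61% rose in siDDX1 cells in the main fit, and 16.4% rose without siDDX1 replicate 3. In siEXOSC3 cells 15.7% fell in the main fit. Shares over all genes under the other alternatives are not given here, so those counts are not read as results about the members. Quantile normalization took the siDDX1 median from 0.34 to 0.053, and the difference between small and large subunit medians in siEXOSC3 cells from -0.056 to 0.0053. It sets the top of the distribution equal in all libraries, which is where these genes lie. Of 620 values for single named genes and paralogue shares under the alternatives, 570 stayed on the same side of the threshold or within 1 SD, 34 passed only under the alternative, 10 no longer passed, 6 moved further, and 0 called values changed sign. The 6 fits without a library leave a group of 2, whose spread is pooled with the other group. Depth could not be weighed from FPKM.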

Other observations

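The tables list 9 copies of ribosomal protein genes as genes of their own (names that end in -ps or rt), of which 6 were tested and 2, Rps27rt and Rpl34-ps1, had a mean of at least 100 FPKM. In siEXOSC3 cells 1 of the 6 rose, where 16.7% of all genes did. It was Rps19-ps3, with 4.86, 8.31 and 6.46 FPKM in scramble and 14.2, 12.2 and 11.6 after depletion (0.88, adjusted p = 0.00598), while its parent Rps19 had an estimate of -0.11 (adjusted p = 0.381). In siDDX1 cells 1 of the 6 rose, where 5.61% of all genes did. It was Rpl14-ps1, from 19.7, 22.1 and 21.9 to 28.7, 27.0 and 25.5 FPKM (0.34, adjusted p = 0.0268), where Rpl14 had an estimate of 0.26 (adjusted p = 0.185). These 2 copies were singled out after their values were seen, and reads of a copy and its parent cannot be told apart where the sequences match.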
